A study of Mus musculus with 10 samples.

Results

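The genes described here encode the chains of collagen, the protein that gives bone and tumour matrix its tensile strength. They were taken as all gene names made of Col, a number, the letter a and a number that had at least 10 counts summed over the 10 libraries of the study. Of 44 such names among the 41743 names in the count tables, 32 met this rule. By known chain class these were 10 of 11 fibrillar chains, 7 of 9 network-forming chains, 5 of 6 beaded-filament chains of collagen VI, 6 of 9 fibril-associated chains (FACIT), both multiplexins, the anchoring-fibril chain Col7a1 and 1 of 4 transmembrane chains. Poly-A RNA was sequenced from K7M2, a mouse osteosarcoma cell line, and from 4 lines derived from it, with 2 libraries per line. Each derived line carries a CRISPR/Cas9 disruption of the ezrin gene (Ezr) and was stably transfected, so disrupted Ezr is common to all of them. T567A cells received ezrin whose regulatory threonine is replaced by alanine, which cannot be phosphorylated. T567D cells received ezrin with aspartate at that residue, which mimics phosphorylation. Wild-type ezrin cells received unchanged ezrin, empty-vector cells received the vector alone, and parental cells are K7M2 with intact Ezr. The sample titles of the derived lines have the tag col3 in common, taken here as 1 disrupted clone, and each construct is represented by 1 stable line, so construct and line cannot be told apart.

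Collagen chains wind around each other into a long helix inside the secretory pathway and are then trimmed, deposited and cross-linked outside the cell. Type I collagen, the chief fibre of bone, is normally made of a pair of Col1a1 chains and 1 Col1a2 chain. Collagens III and V join type I in mixed fibrils, FACIT collagens decorate the fibril surface, collagens IV and VIII form sheets and collagen VI forms beaded filaments around cells.

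T567A replicate 2 was the shallowest library, with 14679424 counts, and T567A replicate 3 the deepest, with 18230763. Levels are given as CPM, counts scaled to a common library size, on which 3 counts correspond to 0.204 and 0.165 in these libraries. Ezr had 248 and 253 CPM in T567A cells, 204 and 182 CPM in T567D cells, 230.4 and 234 CPM in wild-type ezrin cells, 72.4 and 72.9 CPM in empty-vector cells and 164 and 166 CPM in parental cells. The empty-vector libraries were the lowest, and Ezr transcripts were still counted in them. Mitochondrially encoded genes took 1.90% and 1.44% of counts in T567A cells and 0.844% to 1.33% in the other libraries; their part in the results was not tested. Between the 2 libraries of a line, the chi-square of the counts per degree of freedom was 8.57 in T567A cells and 2.46 to 4.38 in the other lines. The tests below share 1 estimate of spread per gene over all lines, so p-values of T567A comparisons may be too small. Of 10 osteoblast markers, Runx2 lay between 32.6 and 39.0 CPM over the line means and Sparc between 921 and 1691, while Sp7, Ibsp, Bglap and Dmp1 were at or near 0 in every line. Summed macrophage markers ranged from 1180 to 1680 CPM, nearly all of it Csf1r, with Adgre1 at 0 in all 10 libraries and Ptprc at or near 0. Summed endothelial markers stayed at or below 2.37 CPM, epithelial markers at or below 0.501 and adipocyte markers at or below 0.175. The 5 chondrocyte markers summed to 1.56 to 1.80 CPM in T567A cells, 2.75 to 2.95 in T567D cells, 3.54 to 3.61 in wild-type ezrin cells, 1.45 to 1.87 in empty-vector cells and 0.232 to 0.467 in parental cells. Nearly all of this was Sox9, the only one of them tested, and Acan was at 0 throughout. In bulk RNA, fewer cells that use a gene and less RNA per cell cannot be told apart. The labels do not say whether a line's libraries stem from independent cultures, and p-values therefore reflect only the spread between libraries, which may be technical.

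Between the lines, collagen chains moved by different amounts and in different directions, and chains of the same molecule often moved apart. Col1a1 spanned the widest range of the abundant chains: it was highest in parental cells, lowest in wild-type ezrin cells and in between in both mutant lines, beside a Col1a2 that varied far less. T567A cells had lower Col5a1, Col6a1, Col6a2, Col16a1, Col18a1 and Col7a1 than wild-type ezrin and T567D cells, while T567D cells were called different from wild-type ezrin cells in Col1a1 and Col3a1. The chondrocyte marker Sox9 differed between the lines as well. Its log2 fold change was -1.21 (adjusted p = 9e-04) in T567A against wild-type ezrin cells, -0.81 (adjusted p = 0.02) in T567A against T567D cells, 1.26 (adjusted p = 0.0019) in wild-type ezrin against empty-vector cells and 2.24 (adjusted p = 0.00012) in empty-vector against parental cells. Its part in the chain changes was not tested. Changes were tested with edgeR's quasi-likelihood test, adjusted by the Benjamini-Hochberg method over 12595 genes and called at an adjusted p under 0.05. Of the 32 chains, 27 passed the filter on low counts and were tested. A chain that passed only because it is high in 1 line had to differ from lower lines, so the counts below describe the tested chains and not the whole family. For 5 chains this was so: Col4a1 and Col8a2 passed only through parental cells, and Col6a3, Col10a1 and Col17a1 only through T567D cells. Their calls in comparisons of that line are given no weight.

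In empty-vector against parental cells, 9 of the 27 chains were higher and 10 lower, 70.4% of those tested, where 54.6% of all genes were called (27.4% higher, 27.2% lower). Without Col4a1 and Col8a2, 9 of 25 were higher and 8 lower, or 68.0%. The median log2 fold change of all 27, with Col4a1 and Col8a2 among them, was 0.155, beside 0 over all genes. In wild-type ezrin against empty-vector cells, 9 chains were higher and 2 lower, or 40.7%, against 15.6% of all genes (8.25% higher, 7.36% lower). Their median was 0.325, beside -0.01 over all genes. This second count was sensitive to single libraries: leaving out empty-vector replicate 2 gave 5 chains, empty-vector replicate 3 gave 7, wild-type replicate 1 gave 4 and wild-type replicate 3 gave 7. Of its 11 chains, only Col4a5 kept its call under every alternative run. In T567A against wild-type ezrin cells, 2 chains were higher and 9 lower, a share of 40.7% that is near the 39.6% called over all genes. Direction was uneven among the chains, with a median log2 fold change of -0.358 beside 0 over all genes, whereas all genes divided into 20.4% higher and 19.1% lower. In T567D against wild-type ezrin cells, 1 chain was higher and 1 lower, or 7.41% against 1.34% of all genes (0.818% higher, 0.524% lower). Without Col6a3, Col10a1 and Col17a1, 1 of 24 was higher and 1 lower, or 8.3%. The median of all 27, with those 3 chains among them, was 0.072, beside 0.002 over all genes. In T567A against T567D cells, 3 chains were higher and 13 lower, or 59.3% against 44.1% (22.5% higher, 21.6% lower). Without Col6a3, Col10a1 and Col17a1, 3 of 24 were higher and 10 lower, or 54.2%. The median of all 27 was -0.658, beside 0.004 over all genes. It includes those 3 chains, at -2.12, -1.87 and -1.64, which had to be lower in T567A cells, and is given no weight. Against parental cells, 7 chains were higher and 11 lower in T567A cells, 12 higher and 6 lower in T567D cells, and 10 higher and 8 lower in wild-type ezrin cells. Each total was 66.7% of those tested. Without the chains that the filter decides, the numbers were 7 higher and 9 lower of 25 in T567A cells, 9 higher and 5 lower of 22 in T567D cells and 10 higher and 6 lower of 25 in wild-type ezrin cells. Of all genes, 62.1% were called in T567A (31.4% higher, 30.7% lower), 55.4% in T567D (27.1% higher, 28.2% lower) and 56.2% in wild-type ezrin cells (27.7% higher, 28.5% lower) against parental cells. These 3 comparisons use the same parental libraries, as does the empty-vector one. Likewise, the comparisons of wild-type ezrin cells with empty-vector, T567A and T567D cells use the same wild-type libraries. Those libraries enter the empty-vector comparison with the opposite sign to the mutant ones, so the directions in these comparisons are not independent. Over the 5 lines together, 21 of 27 chains differed, a share near the 78.0% of all genes that did. The 5 chains that passed the filter only through 1 line are among these 27, and that line is always part of this test.

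**Figure D1:**
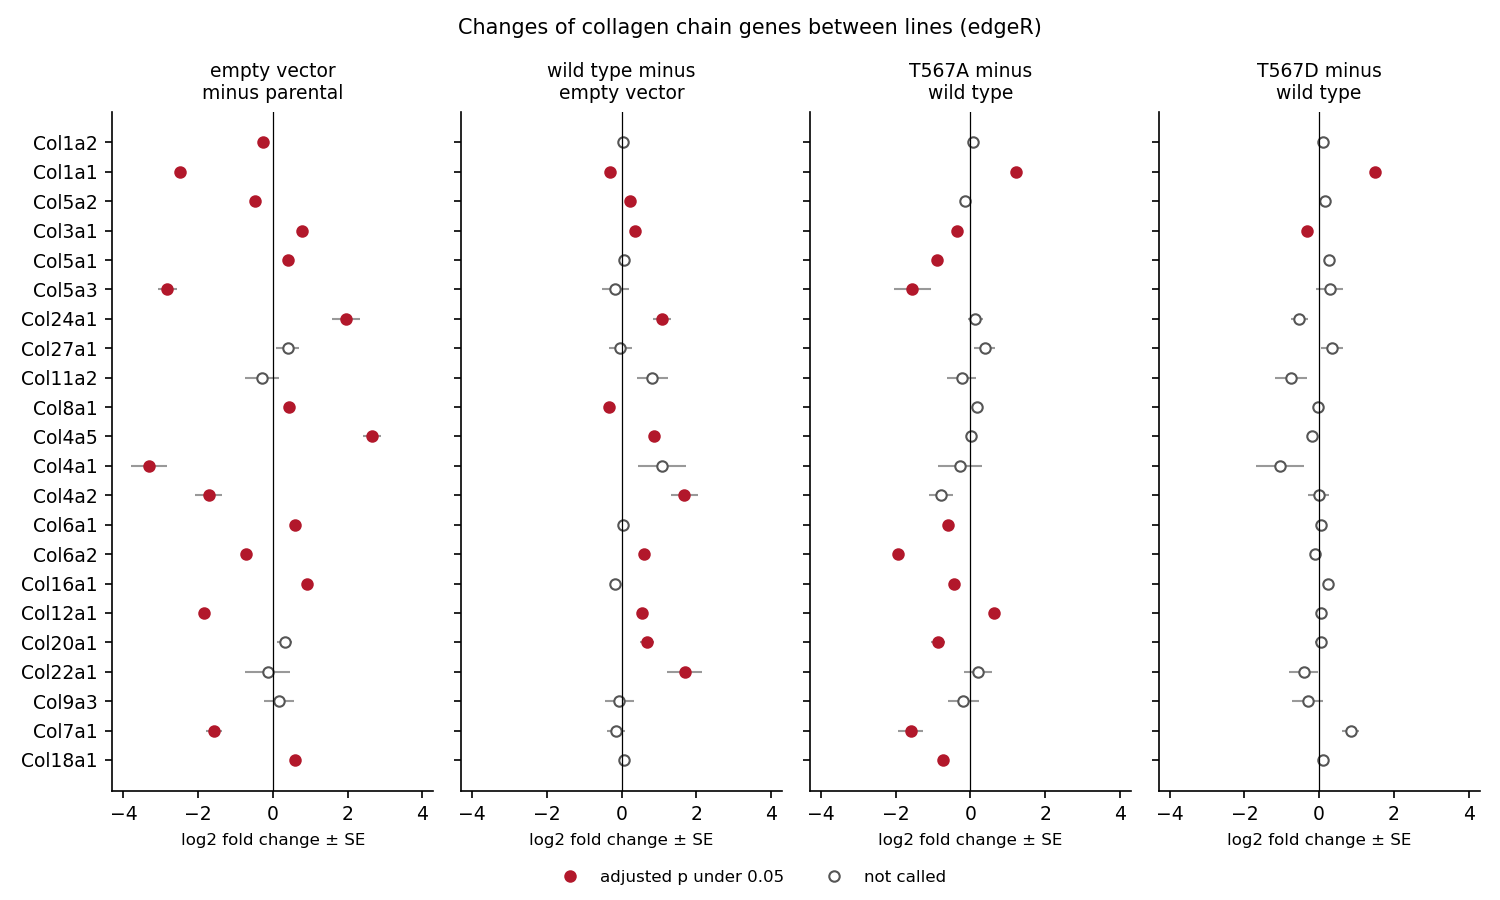
Log2 fold change (x axis) with its standard error for the 22 collagen chain genes that averaged 1 CPM or more in a line, in 4 comparisons; filled points have an adjusted p under 0.05 and open points do not. Col1a1 lies at -2.49 for empty vector minus parental, -0.32 for wild type minus empty vector, 1.22 for T567A minus wild type and 1.50 for T567D minus wild type, and most filled points of the T567A panel lie left of 0. Col4a1 was tested only because of its parental level.

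Sequence upstream of the start site is shown for the chains that were lower in T567A than in wild-type ezrin cells and whose 100 bases before an annotated start overlap no annotated exon, with Col8a1 beside them as the most abundant such chain whose change did not pass. The sequences come from RefSeq on GRCm38.p6, that is from the reference mouse strain and not from K7M2, and each is written 5′ to 3′ along the strand of its gene. Capitals mark the GC box, GGGCGG or its reverse complement CCGCCC, the core letters that factors of the Sp family are known to bind.
Col5a1 (chr2:27886325-27886424, plus strand): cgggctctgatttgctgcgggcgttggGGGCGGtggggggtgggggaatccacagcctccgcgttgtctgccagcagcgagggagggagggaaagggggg
Col5a3 (chr9:20815068-20815167, minus strand): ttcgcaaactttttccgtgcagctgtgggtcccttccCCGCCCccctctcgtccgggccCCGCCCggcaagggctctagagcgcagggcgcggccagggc
Col7a1 (chr9:108953486-108953585, plus strand): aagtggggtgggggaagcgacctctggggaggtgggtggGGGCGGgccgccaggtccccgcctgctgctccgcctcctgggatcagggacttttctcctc
Col3a1 (chr1:45311438-45311537, plus strand): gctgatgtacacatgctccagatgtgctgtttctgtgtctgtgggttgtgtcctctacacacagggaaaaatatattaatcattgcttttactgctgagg
Col6a2 (chr10:76623631-76623730, minus strand): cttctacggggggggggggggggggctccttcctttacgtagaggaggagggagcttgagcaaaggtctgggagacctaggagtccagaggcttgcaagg
Col8a1 (chr16:57754738-57754837, minus strand): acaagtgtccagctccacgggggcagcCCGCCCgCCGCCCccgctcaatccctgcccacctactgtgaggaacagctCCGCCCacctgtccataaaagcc

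Col5a1, Col5a3 and Col7a1 hold the GC box in this window, and Col3a1 and the printed Col6a2 window do not. Another annotated Col6a2 start has the GC box 3 times before it, in a window that overlaps an exon. Of the tested chains whose change did not pass and whose window is free of exons, Col8a1, Col11a2, Col27a1 and Col6a5 hold it, and Col24a1, Col6a3 and Col10a1 do not. Over all genes with a sequence, 7388 of 27025 (27.3%) hold the GC box in the 100 bases before a start, as do 12 of the 25 collagen genes with a sequence. The letters CCAAT or ATTGG occur in 21.6% of all genes and in 2 of the 25, and TATAAA or TTTATA in 6.57% and in 2 of the 25. The median GC content of the 250 bases before the start was 58.8% for the collagen genes and 52.4% over all genes. A match is a description of letters and not a binding site.

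The type I chains came apart. Col1a1 (chr11:94936224-94953042 on GRCm38, plus strand) had 598 and 609 CPM in T567A cells, 675 and 794 CPM in T567D cells, 272 and 247 CPM in wild-type ezrin cells, 320.3 and 327 CPM in empty-vector cells and 1805 and 1827 CPM in parental cells. Col1a2 (chr6:4504814-4541544, plus strand) had 3194 and 3127 CPM in T567A cells, 3100 and 3329 CPM in T567D cells, 3007 and 2965 CPM in wild-type ezrin cells, 2933 and 2893 CPM in empty-vector cells and 3530 and 3527 CPM in parental cells. No derived line reached the parental Col1a1 level, and for Col1a1 the ranges of the 5 lines did not overlap.

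Col1a1 fell in empty-vector against parental cells (log2 fold change -2.49 ± 0.072 (SE), adjusted p = 4.5e-17) and was lower still in wild-type ezrin against empty-vector cells (log2 fold change -0.32 ± 0.07 (SE), adjusted p = 0.0033). The second, smaller difference missed the threshold without wild-type replicate 3, with an adjusted p of 0.086. Both mutants exceeded wild-type ezrin cells: T567A cells by a log2 fold change 1.22 ± 0.07 (SE), adjusted p = 1.4e-11, and T567D cells by a log2 fold change 1.50 ± 0.07 (SE), adjusted p = 1.4e-11. T567A cells had less Col1a1 than T567D cells (log2 fold change -0.28 ± 0.068 (SE), adjusted p = 0.002), a call that was lost without T567D replicate 3 (adjusted p = 0.099). Against parental cells, the log2 fold change of Col1a1 was -1.59 in T567A cells, -1.31 in T567D cells and -2.81 in wild-type ezrin cells.

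Col1a2 moved far less. It fell in empty-vector against parental cells (log2 fold change -0.28 ± 0.055 (SE), adjusted p = 0.00023). Against parental cells its log2 fold change was -0.16 in T567A cells (adjusted p = 0.017), -0.13 in T567D cells (adjusted p = 0.044, lost under 16 alternatives) and -0.24 in wild-type ezrin cells (adjusted p = 0.00088). The T567A call was lost without either parental replicate. Its differences from wild-type ezrin cells did not pass the test, with a log2 fold change of 0.08 in T567A cells and 0.11 in T567D cells. Col1a2 took 44.9% to 52.0% of all collagen counts in the 10 libraries, against 3.98% to 23.5% for Col1a1.

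Set against each other within a library and per gene length, as RPKM (reads scaled to gene length and library size), Col1a1 and Col1a2 were nearly even only in parental cells. The Col1a1 to Col1a2 RPKM ratio was 0.354 and 0.369 in T567A cells, 0.412 and 0.452 in T567D cells, 0.171 and 0.158 in wild-type ezrin cells, 0.207 and 0.214 in empty-vector cells and 0.968 and 0.981 in parental cells. No line's range overlapped another's. The ratio averaged 0.362 ± 0.010 in T567A cells, 0.432 ± 0.028 in T567D cells, 0.164 ± 0.0095 in wild-type ezrin cells, 0.210 ± 0.0051 in empty-vector cells and 0.974 ± 0.0091 in parental cells (SD, n = 2 each). It differed over the 5 lines in an exact permutation test of the 113400 assignments of libraries to lines (p = 0.0011, the smallest that this design allows). With 2 libraries a line, no pair of lines can pass 0.05 in such a test, and none was tested alone.

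**Figure D2:**
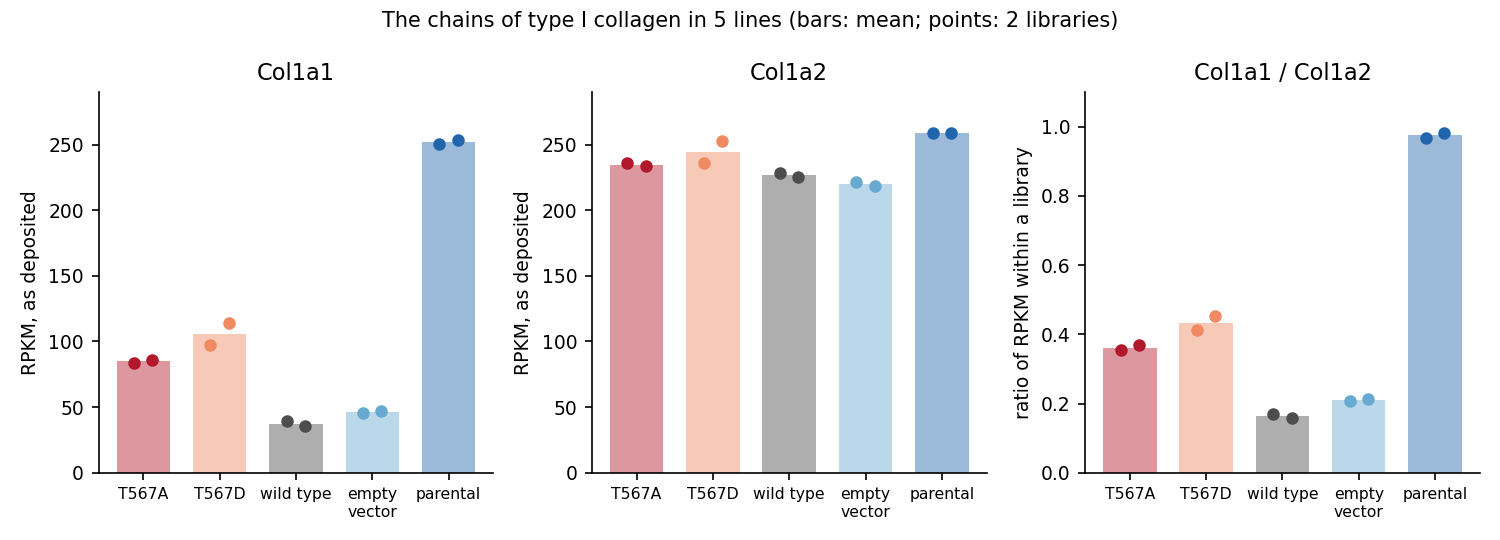
Deposited RPKM (y axes of the left and middle panels) of Col1a1 and Col1a2 and their ratio within a library (last panel) in the 5 lines; bars are means and points the 2 libraries. Col1a2 stays in a narrow band, while the ratio is 0.974 in parental cells and no more than 0.452 in any library of a derived line.

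Among the other fibrillar chains, Col3a1, whose product mixes with type I in fibrils, was lowest in parental cells and highest in wild-type ezrin cells. Col3a1 (chr1:45311538-45349706, plus strand) had 450.3 and 443 CPM in T567A cells, 413 and 502 CPM in T567D cells, 595 and 549.8 CPM in wild-type ezrin cells, 429 and 461 CPM in empty-vector cells and 262 and 256 CPM in parental cells. It rose in empty-vector against parental cells (log2 fold change 0.78 ± 0.076 (SE), adjusted p = 2.9e-08), a direction opposite to that of Col1a1. It was lower in T567A than in wild-type ezrin cells (log2 fold change -0.36 ± 0.074 (SE), adjusted p = 0.00075). The lower value in T567D than in wild-type ezrin cells (log2 fold change -0.32 ± 0.074 (SE), adjusted p = 0.032) passed narrowly and missed the threshold under 10 alternatives.

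Collagen V regulates the diameter of type I fibrils, and its chains differed in their pattern. Col5a1 (chr2:27886425-28039514, plus strand), its main chain, had 104 and 99.7 CPM in T567A cells, 206 and 245 CPM in T567D cells, 195 and 181 CPM in wild-type ezrin cells, 176 and 185 CPM in empty-vector cells and 134 and 138 CPM in parental cells. The T567A libraries lay below all others and the T567D libraries above all others. Col5a1 fell in T567A against wild-type ezrin cells (log2 fold change -0.89 ± 0.075 (SE), adjusted p = 6.9e-09) and against T567D cells (log2 fold change -1.15 ± 0.075 (SE), adjusted p = 1e-10). Its upstream window holds the GC box once. It was higher in empty-vector than in parental cells (log2 fold change 0.41 ± 0.074 (SE), adjusted p = 7.3e-05).

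Col5a2 (chr1:45374321-45503282, minus strand), the partner of Col5a1 in the common form of collagen V, had 669.7 and 601 CPM in T567A cells, 778 and 791 CPM in T567D cells, 694 and 711 CPM in wild-type ezrin cells, 596 and 617 CPM in empty-vector cells and 831 and 865 CPM in parental cells. It was highest in parental cells and fell in empty-vector against parental cells (log2 fold change -0.48 ± 0.06 (SE), adjusted p = 6.8e-07). T567A cells were below T567D cells (log2 fold change -0.30 ± 0.06 (SE), adjusted p = 0.00035), but the difference from wild-type ezrin cells did not pass (log2 fold change -0.15 ± 0.06 (SE), adjusted p = 0.06). The Col5a1 to Col5a2 RPKM ratio averaged 0.180 ± 0.0086 in T567A cells, 0.322 ± 0.036 in T567D cells, 0.300 ± 0.020 in wild-type ezrin cells, 0.334 ± 0.0030 in empty-vector cells and 0.180 ± 0.00069 in parental cells (SD, n = 2 each). T567A and parental cells stood together below the other 3 lines.

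Col5a3 (chr9:20770050-20815067, minus strand), a minor collagen V chain, was scarce outside the parental line, with 0.276 and 0.445 CPM in T567A cells, 0.866 and 1.81 CPM in T567D cells, 1.34 and 0.857 CPM in wild-type ezrin cells, 1.47 and 0.983 CPM in empty-vector cells and 9.18 and 8.28 CPM in parental cells. It fell in empty-vector against parental cells (log2 fold change -2.82 ± 0.25 (SE), adjusted p = 4.8e-09). The lower T567A value against wild-type ezrin cells (log2 fold change -1.55 ± 0.49 (SE), adjusted p = 0.015) rested on few counts and missed the threshold without wild-type replicate 1 (adjusted p = 0.15) or T567A replicate 2 (adjusted p = 0.089). Col24a1, a fibrillar chain expressed in developing bone in mice, ran the other way, with 3.59 and 3.34 CPM in T567A cells, 2.08 and 2.28 CPM in T567D cells, 3.49 and 2.80 CPM in wild-type ezrin cells, 1.36 and 1.62 CPM in empty-vector cells and 0.349 and 0.408 CPM in parental cells. It was higher in empty-vector than in parental cells (log2 fold change 1.95 ± 0.37 (SE), adjusted p = 0.00014) and higher again in wild-type ezrin than in empty-vector cells (log2 fold change 1.08 ± 0.24 (SE), adjusted p = 0.0041), the second call being lost when empty-vector replicate 2 or wild-type replicate 1 was left out (adjusted p = 0.066 to 0.071).

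The remaining tested fibrillar chains were low. Col27a1, a cartilage-associated chain, had 2.42 and 2.12 CPM in T567A cells, 1.73 and 2.69 CPM in T567D cells, 1.75 and 1.71 CPM in wild-type ezrin cells, 2.09 and 1.45 CPM in empty-vector cells and 1.10 and 1.57 CPM in parental cells. It was called higher in T567A (log2 fold change 0.75) and T567D cells (0.72) than in parental cells, each call being lost under 8 alternatives, and in no other comparison. Col11a2, a chain of cartilage collagen XI, had 1.93 and 0.668 CPM in T567A cells, 0.578 and 1.17 CPM in T567D cells, 1.40 and 1.54 CPM in wild-type ezrin cells, 0.791 and 0.868 CPM in empty-vector cells and 0.872 and 1.17 CPM in parental cells. Its wild-type ezrin libraries lay above those of T567D, empty-vector and parental cells and within the T567A range, and no comparison passed.

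**Figure D3:**
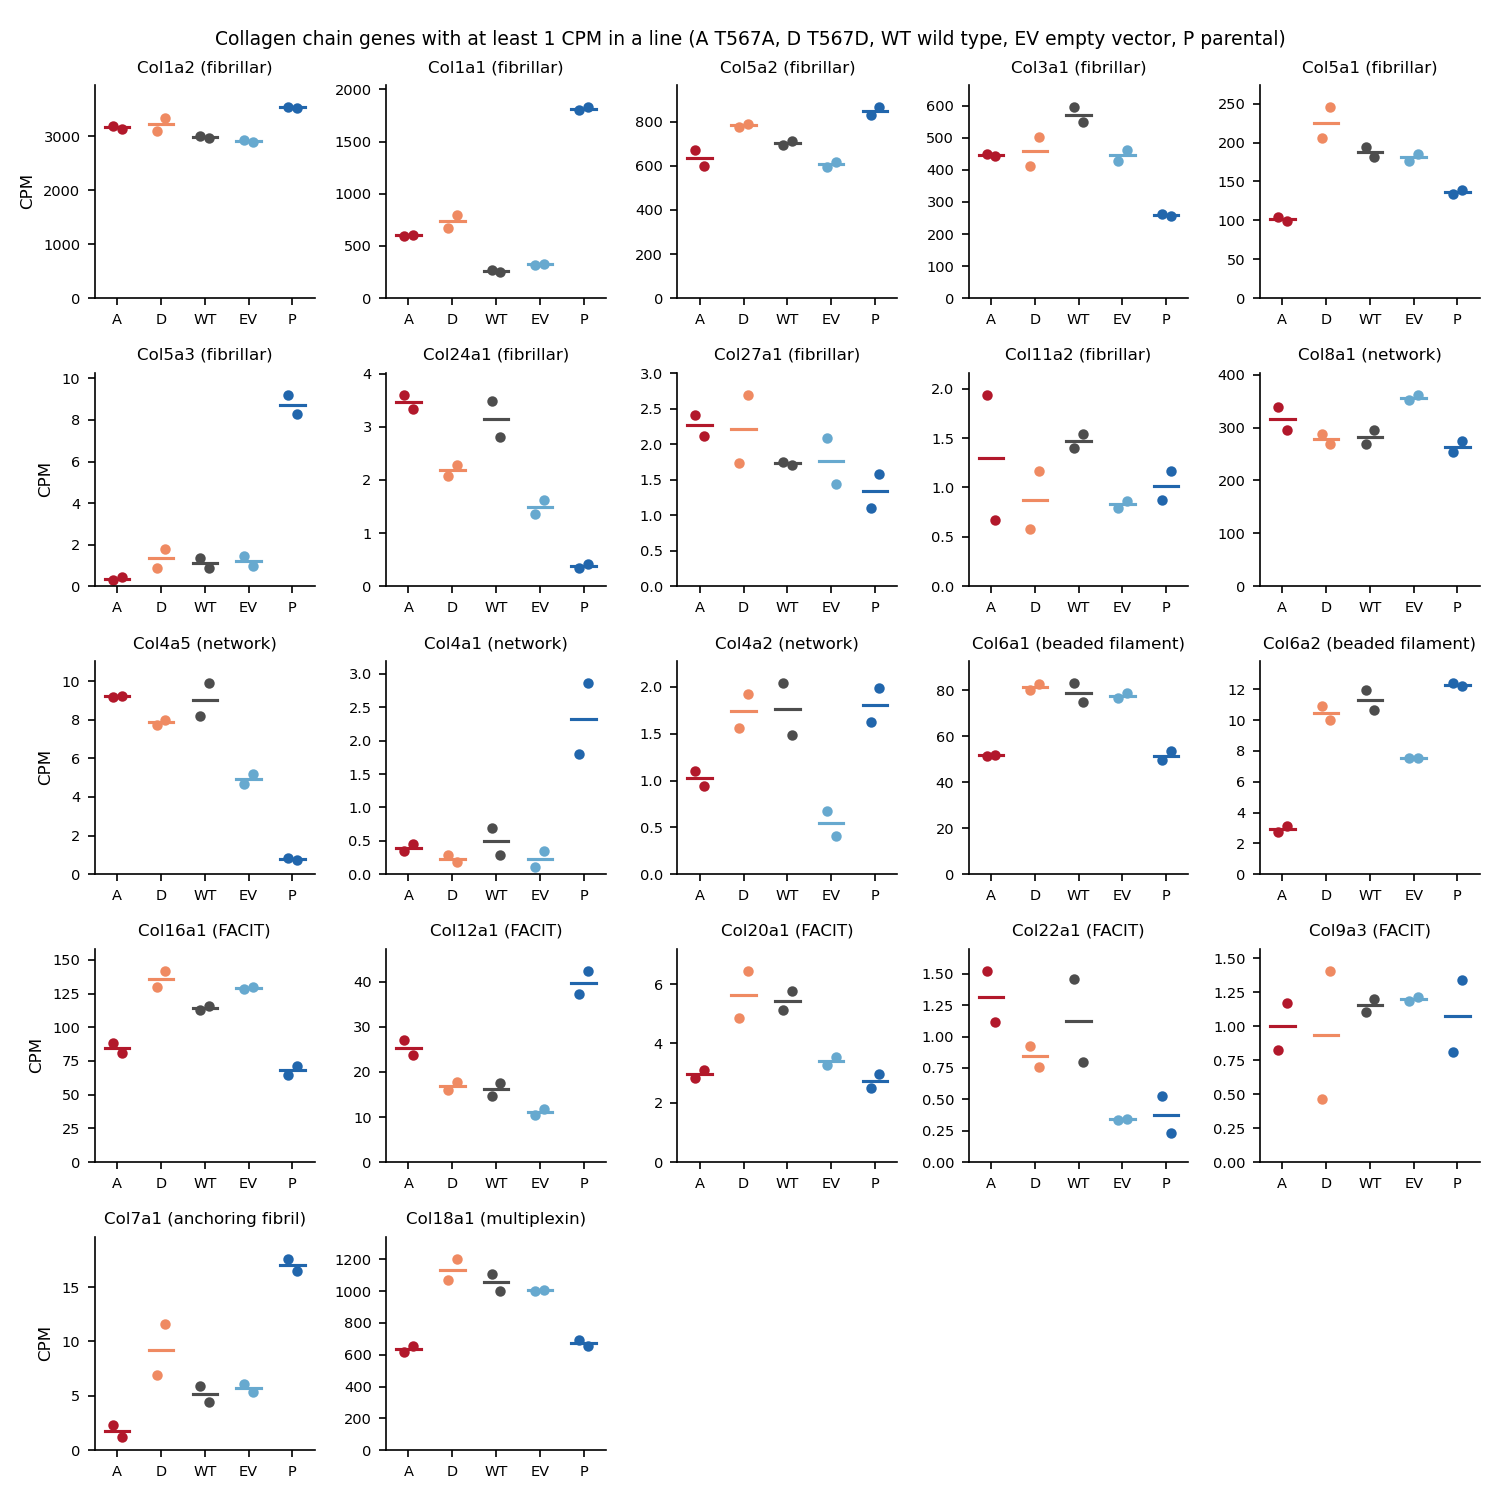
CPM (y axes, each from 0 and scaled to its gene) of the 22 chains that averaged 1 CPM or more in a line, by line (x axis); points are the 2 libraries and lines their mean. Col1a1, Col5a3, Col12a1 and Col7a1 are highest in parental cells, Col4a5 and Col24a1 lowest there, and Col5a1, Col6a2, Col18a1 and Col7a1 lie lower in T567A than in wild-type ezrin cells.

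The network-forming chains were divided between an abundant collagen VIII chain and scarce collagen IV chains. Col8a1 (chr16:57624258-57754737, minus strand), which forms hexagonal lattices in vessel and eye membranes, had 339 and 295 CPM in T567A cells, 288 and 268 CPM in T567D cells, 269.6 and 296 CPM in wild-type ezrin cells, 352 and 361 CPM in empty-vector cells and 254 and 274 CPM in parental cells. It was higher in empty-vector than in parental cells (log2 fold change 0.43 ± 0.071 (SE), adjusted p = 2.4e-05) and lower in wild-type ezrin than in empty-vector cells (log2 fold change -0.34 ± 0.071 (SE), adjusted p = 0.0026), the second call being lost without wild-type replicate 1. Its change in T567A against wild-type ezrin cells did not pass (log2 fold change 0.16, adjusted p = 0.069). Its upstream window holds the GC box at 3 places.

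Collagen IV builds basement membranes, in which Col4a1 pairs with Col4a2 and Col4a5 joins chains of its own. Col4a5 (chrX:141475385-141689234, plus strand) was low in parental cells and several times higher in every derived line, with 9.18 and 9.24 CPM in T567A cells, 7.74 and 8.01 CPM in T567D cells, 8.21 and 9.88 CPM in wild-type ezrin cells, 4.69 and 5.21 CPM in empty-vector cells and 0.814 and 0.758 CPM in parental cells. It rose in empty-vector against parental cells (log2 fold change 2.64 ± 0.24 (SE), adjusted p = 4.3e-09) and was higher again in wild-type ezrin than in empty-vector cells (log2 fold change 0.87 ± 0.14 (SE), adjusted p = 3e-04). The log2 fold change against parental cells was 3.54 in T567A cells, 3.31 in T567D cells and 3.51 in wild-type ezrin cells. Col4a6, which starts 1308 bases away on the opposite strand in a head-to-head arrangement, had 0 counts in all libraries.

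Col4a1 ran against Col4a5. It had 0.345 and 0.445 CPM in T567A cells, 0.289 and 0.175 CPM in T567D cells, 0.698 and 0.286 CPM in wild-type ezrin cells, 0.113 and 0.347 CPM in empty-vector cells and 1.80 and 2.86 CPM in parental cells. Parental cells held the highest values, and since Col4a1 passed the filter only through them, no test is given. Col4a2, which meets Col4a1 head to head on chromosome 8 with 22 bases of overlap, had 1.10 and 0.946 CPM in T567A cells, 1.56 and 1.93 CPM in T567D cells, 2.04 and 1.49 CPM in wild-type ezrin cells, 0.678 and 0.405 CPM in empty-vector cells and 1.63 and 1.98 CPM in parental cells. It fell in empty-vector against parental cells (log2 fold change -1.72 ± 0.36 (SE), adjusted p = 0.00037) and was higher in wild-type ezrin than in empty-vector cells (log2 fold change 1.68 ± 0.36 (SE), adjusted p = 0.0029). Col4a2 thus lay near the parental level in T567D and wild-type ezrin cells, while Col4a1 stayed at or below 0.492 CPM in the mean of each derived line. The Col4a1 to Col4a2 RPKM ratio averaged 0.347 ± 0.099 in T567A cells, 0.122 ± 0.059 in T567D cells, 0.237 ± 0.094 in wild-type ezrin cells, 0.454 ± 0.43 in empty-vector cells and 1.13 ± 0.21 in parental cells (SD, n = 2 each). Both genes were close to the counting floor in several libraries, and the call for Col4a2 in wild-type ezrin cells was lost without empty-vector replicate 3 or wild-type replicate 1 (adjusted p = 0.053 to 0.057). Col8a2 and the growth-plate cartilage chain Col10a1 stayed under 1 CPM in every line. Col8a2 averaged 0.207 CPM in T567A, 0.32 in T567D, 0.231 in wild-type ezrin, 0.199 in empty-vector and 0.728 in parental cells. Col10a1 had 8 counts in empty-vector and 1 in parental libraries, a ratio of 8.09 (95% exact binomial interval 1.08 to 359, counting error only), and it lies wholly inside Nt5dc1 on the other strand.

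Collagen VI, which links cells to the matrix around them, is made from Col6a1, Col6a2 and a longer chain such as Col6a3. Its main chains changed unevenly. Col6a1 (chr10:76708792-76726168, minus strand) had 51.5 and 51.8 CPM in T567A cells, 80.3 and 82.8 CPM in T567D cells, 83.0 and 75.0 CPM in wild-type ezrin cells, 76.5 and 78.9 CPM in empty-vector cells and 49.8 and 53.4 CPM in parental cells. Col6a2 (chr10:76595762-76623630, minus strand), 85161 bases downstream of Col6a1 on the same strand, had 2.76 and 3.12 CPM in T567A cells, 10.9 and 9.99 CPM in T567D cells, 11.9 and 10.7 CPM in wild-type ezrin cells, 7.52 and 7.52 CPM in empty-vector cells and 12.4 and 12.2 CPM in parental cells. For both, the T567A libraries lay below those of the other 3 derived lines.

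In T567A against wild-type ezrin cells, Col6a2 fell (log2 fold change -1.93 ± 0.15 (SE), adjusted p = 1.6e-09) and so did Col6a1 (log2 fold change -0.61 ± 0.071 (SE), adjusted p = 7.8e-07). The difference between these changes was not tested. In T567A against T567D cells, the log2 fold change was -1.82 for Col6a2 and -0.66 for Col6a1. In empty-vector against parental cells they moved apart: Col6a1 rose (log2 fold change 0.59 ± 0.071 (SE), adjusted p = 4e-07) and Col6a2 fell (log2 fold change -0.71 ± 0.12 (SE), adjusted p = 4.4e-05). The Col6a1 to Col6a2 RPKM ratio was accordingly 35.5 and 31.6 in T567A cells, 14.0 and 15.7 in T567D cells, 13.2 and 13.3 in wild-type ezrin cells, 19.3 and 19.9 in empty-vector cells and 7.64 and 8.32 in parental cells. Col6a3, the usual longer chain, averaged 0.166 CPM in T567A, 0.697 in T567D, 0.49 in wild-type ezrin, 0.143 in empty-vector and 0.233 in parental cells. The line means of Col6a5 stayed at or below 0.696 CPM, and its highest library, T567D replicate 1, had 0.866.

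Among the fibril-associated chains, Col16a1 and Col12a1 were the most abundant. They moved in opposite directions both in empty-vector and in T567A cells. Col16a1 (chr4:130047840-130099283, plus strand) had 88.7 and 80.8 CPM in T567A cells, 130.0 and 141 CPM in T567D cells, 113 and 116 CPM in wild-type ezrin cells, 128 and 129.7 CPM in empty-vector cells and 64.9 and 71.5 CPM in parental cells. Col12a1 (chr9:79598991-79718831, minus strand), a chain of tension-bearing tissues, had 27.1 and 23.7 CPM in T567A cells, 16.0 and 17.6 CPM in T567D cells, 14.7 and 17.6 CPM in wild-type ezrin cells, 10.3 and 11.9 CPM in empty-vector cells and 37.2 and 42.2 CPM in parental cells. Parental cells were lowest for Col16a1 and highest for Col12a1.

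Col16a1 rose in empty-vector against parental cells (log2 fold change 0.92 ± 0.071 (SE), adjusted p = 4.2e-10) and fell in T567A against wild-type ezrin cells (log2 fold change -0.44 ± 0.07 (SE), adjusted p = 4.7e-05). Col12a1 fell in empty-vector against parental cells (log2 fold change -1.84 ± 0.11 (SE), adjusted p = 7.8e-12) and was, beside Col1a1, the other chain higher in T567A than in wild-type ezrin cells (log2 fold change 0.64 ± 0.11 (SE), adjusted p = 9.7e-05). Col20a1 had 2.83 and 3.12 CPM in T567A cells, 4.85 and 6.43 CPM in T567D cells, 5.12 and 5.77 CPM in wild-type ezrin cells, 3.28 and 3.53 CPM in empty-vector cells and 2.50 and 2.98 CPM in parental cells. It was lower in T567A than in wild-type ezrin cells (log2 fold change -0.87 ± 0.19 (SE), adjusted p = 0.0012). Col22a1, a chain of tissue junctions, had 1.52 and 1.11 CPM in T567A cells, 0.924 and 0.76 CPM in T567D cells, 1.46 and 0.8 CPM in wild-type ezrin cells, 0.339 and 0.347 CPM in empty-vector cells and 0.523 and 0.233 CPM in parental cells. Its higher value in wild-type ezrin than in empty-vector cells (log2 fold change 1.69, adjusted p = 0.018) was lost under 8 alternatives. Col9a3, a cartilage chain, had 0.829 and 1.17 CPM in T567A cells, 0.462 and 1.40 CPM in T567D cells, 1.11 and 1.20 CPM in wild-type ezrin cells, 1.19 and 1.22 CPM in empty-vector cells and 0.814 and 1.34 CPM in parental cells. No comparison passed.

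Col18a1, the precursor of the vessel-growth inhibitor endostatin, was among the 3 most abundant chains per length in each of the 5 lines. Col18a1 (chr10:77052178-77166548, minus strand) had 618 and 655 CPM in T567A cells, 1068 and 1199 CPM in T567D cells, 1106 and 1002 CPM in wild-type ezrin cells, 1000 and 1008 CPM in empty-vector cells and 689.7 and 654 CPM in parental cells. T567A and parental cells stood together below the other 3 lines, with no overlap. Col18a1 fell in T567A against wild-type ezrin cells (log2 fold change -0.73 ± 0.066 (SE), adjusted p = 1.9e-08) and against T567D cells (log2 fold change -0.83 ± 0.066 (SE), adjusted p = 2.1e-09), and it rose in empty-vector against parental cells (log2 fold change 0.58 ± 0.066 (SE), adjusted p = 1.8e-07). It shares 8825 bases with Slc19a1 on the opposite strand, and whether reads were counted by strand is not given in the sources used here. Slc19a1 averaged 72.8 CPM in T567A cells, 79.4 in T567D cells, 78.6 in wild-type ezrin cells, 83.2 in empty-vector cells and 89.2 in parental cells, and passed in none of those 3 comparisons.

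Col7a1 (chr9:108953586-108984875, plus strand), which forms the anchoring fibrils beneath skin epithelium, was highest in parental and lowest in T567A cells, with 2.28 and 1.23 CPM in T567A cells, 6.93 and 11.6 CPM in T567D cells, 5.88 and 4.46 CPM in wild-type ezrin cells, 6.05 and 5.38 CPM in empty-vector cells and 17.6 and 16.4 CPM in parental cells. It fell in T567A against wild-type ezrin cells (log2 fold change -1.60 ± 0.33 (SE), adjusted p = 0.0019), in T567A against T567D cells (log2 fold change -2.44 ± 0.3 (SE), adjusted p = 2.2e-05) and in empty-vector against parental cells (log2 fold change -1.57 ± 0.21 (SE), adjusted p = 2.7e-05). Col17a1, a transmembrane chain of hemidesmosomes, stayed under 1 CPM in every library, with means of 0.249 CPM in T567A, 0.784 in T567D, 0.492 in wild-type ezrin, 0.313 in empty-vector and 0.233 in parental cells. Of the 5 chains that did not pass the filter, Col2a1 had 50 counts in all libraries together, Col6a4 28, Col15a1 23, and Col14a1 and Col4a4 19 each. The members nearest to the threshold were thus at 19 counts, and Col28a1, just below it, had 9. Of the 12 names under 10 counts, Col4a6, Col9a1, Col13a1 and Col26a1 were at 0 throughout.

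Per gene length, the order of the chains differed between the lines below the first place. Col1a2 led in every line, with a mean of 235 RPKM in T567A, 244 in T567D, 227 in wild-type ezrin, 220.0 in empty-vector and 259 in parental cells. Col1a1 came second in parental cells at 252 RPKM, next to Col1a2. In T567A cells Col1a1, with 84.9 RPKM, and Col18a1, with 83.7, overlapped in their libraries. Col18a1 was second in T567D, wild-type ezrin and empty-vector cells, and Col1a1 took rank 3 in T567D, rank 5 in wild-type ezrin and rank 4 in empty-vector cells.

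Summed over the 32 chains, the RPKM came to 583 ± 4.6 in T567A cells, 725 ± 46 in T567D cells, 624 ± 17 in wild-type ezrin cells, 604 ± 5.1 in empty-vector cells and 776 ± 4.7 in parental cells (SD, n = 2 each). The fibrillar chains made up 74.6 ± 0.19% of this sum in T567A cells, 68.5 ± 0.29% in T567D cells, 65.6 ± 0.47% in wild-type ezrin cells, 64.3 ± 0.058% in empty-vector cells and 81.3 ± 0.11% in parental cells. The multiplexins, in effect Col18a1, made up 14.4 ± 0.82% in T567A cells, 21.0 ± 0.34% in T567D cells, 22.7 ± 0.98% in wild-type ezrin cells, 22.2 ± 0.053% in empty-vector cells and 11.2 ± 0.49% in parental cells. Col1a1 alone took 14.6% of the sum in T567A, 14.5% in T567D, 5.96% in wild-type ezrin, 7.66% in empty-vector and 32.5% in parental cells. Beaded-filament chains were at most 2.95% and FACIT chains at most 3.24% of the sum in any line.

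**Figure D4:**
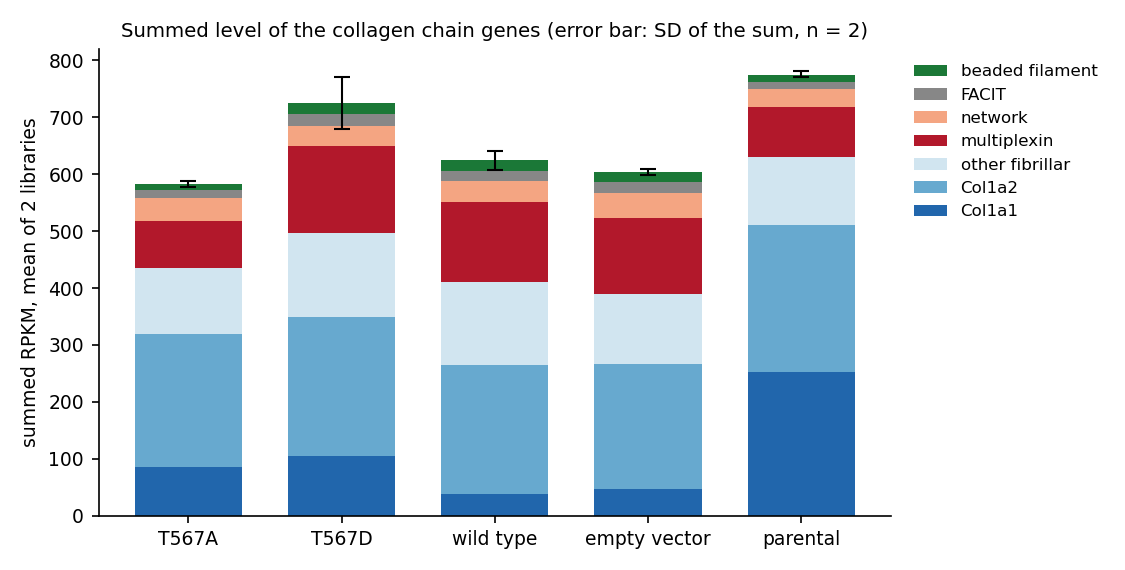
Summed deposited RPKM (y axis, mean of 2 libraries) of the collagen chain genes in the 5 lines, divided by chain class with Col1a1 and Col1a2 apart; error bars are the SD of the sum. Col7a1 and Col17a1 are too low to draw. The Col1a1 block is largest in parental cells, and the multiplexin block is smaller in T567A and parental cells than in the other 3 lines.

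Several chain genes are neighbours, and neighbours did not always move together. Col3a1 and Col5a2 lie tail to tail on chromosome 1, with 24614 bases between them, and changed by 0.78 and -0.48 on the log2 scale in empty-vector against parental cells. Col6a1 and Col6a2 changed by 0.59 and -0.71 in that comparison, and both were lower in T567A than in wild-type ezrin cells.

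Genes that make, process, bind and break down collagen were followed as 4 lists, to be read against the 54.6% of all genes called in empty-vector against parental cells (27.4% higher, 27.2% lower). In empty-vector against parental cells, 6 of 22 tested genes of chain folding and modification were higher and 9 lower, with a median log2 fold change of -0.096. Over all genes that median was 0. Plod1, a lysyl hydroxylase, was higher (123 ± 0.097 CPM in empty-vector cells and 56.1 ± 5.6 CPM in parental cells, a change of 1.13 on the log2 scale, adjusted p = 5.3e-09). Serpinh1, the collagen chaperone HSP47, was lower (550 ± 22 CPM in empty-vector cells and 761 ± 39 CPM in parental cells, a change of -0.47 on the log2 scale, adjusted p = 1e-06), as was Creb3l1, a factor that in mouse osteoblasts activates Col1a1 (21.2 ± 0.58 CPM in empty-vector cells and 43.1 ± 1.9 CPM in parental cells, a change of -1.02 on the log2 scale, adjusted p = 1.1e-08). Creb3l1 averaged 20.2 CPM in T567A, 24.2 in T567D and 19.6 in wild-type ezrin cells. Against wild-type ezrin cells its log2 fold change was 0.05 in T567A cells (adjusted p = 0.74) and 0.30 in T567D cells (adjusted p = 0.2). Its part in the Col1a1 changes was not tested. Of 10 processing and cross-linking genes, 3 were higher and 4 lower (median 0.052), among them the lysyl oxidase gene Lox (255 ± 1.3 CPM in empty-vector cells and 470 ± 22 CPM in parental cells, a change of -0.88 on the log2 scale, adjusted p = 1.1e-08). Loxl1, also among the lower ones, passed the filter on low counts only through parental cells (3.02 and 2.45 CPM), so its call is given no weight.

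Of 9 tested collagen receptors and uptake genes, 3 were higher and 4 lower in empty-vector than in parental cells, with a median log2 fold change of -0.199, where 54.6% of all genes were called. Itga11, an integrin chain that binds type I collagen, had 13.7 and 15.7 CPM in T567A cells, 5.49 and 6.72 CPM in T567D cells, 6.58 and 7.25 CPM in wild-type ezrin cells, 2.04 and 1.27 CPM in empty-vector cells and 62.7 and 60.7 CPM in parental cells. It fell by 5.21 on the log2 scale in empty-vector against parental cells (adjusted p = 3.1e-17). Mrc2, which takes up collagen for breakdown, was higher (113 ± 0.016 CPM in empty-vector cells and 49.2 ± 2.6 CPM in parental cells, a change of 1.19 on the log2 scale, adjusted p = 4.6e-11). All 7 tested breakdown genes were called, 4 higher and 3 lower, with a median of 1.025, again beside 54.6% of all genes. Fap, among the higher ones, would have failed the filter without its empty-vector libraries (0.678 and 0.578 CPM), so its call is given no weight. The collagenase Mmp13 averaged 184 ± 4.1 CPM in empty-vector cells and 40.5 ± 1.8 CPM in parental cells (a change of 2.18 on the log2 scale, adjusted p = 2.8e-05), and the gelatinase Mmp9 averaged 174 ± 4.6 CPM in empty-vector cells and 40.9 ± 3.1 CPM in parental cells (a change of 2.09 on the log2 scale, adjusted p = 3.1e-15). Mmp2, another gelatinase, had 1 count in both empty-vector libraries together and 4072 in the parental ones, a ratio of 0.000248 (95% exact binomial interval 6.29e-06 to 0.00138, counting error only).

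In T567A against wild-type ezrin cells, where 20.4% of all genes were higher and 19.1% lower (39.6% called), 9 of 22 folding and modification genes were higher and 1 lower. Their median log2 fold change was 0.121, beside 0 over all genes. The prolyl hydroxylase gene P4ha3 averaged 28.2 ± 0.82 CPM in T567A and 19.7 ± 1.4 in wild-type ezrin cells (log2 fold change 0.52, adjusted p = 0.00011). Of 10 processing genes, 1 was higher and 3 lower, with a median of -0.267. Loxl4 rose (441 ± 37 CPM in T567A and 209 ± 0.69 in wild-type ezrin cells; log2 fold change 1.08, adjusted p = 2.2e-11) and Lox fell (113 ± 17 CPM in T567A and 171 ± 13 in wild-type ezrin cells; log2 fold change -0.60, adjusted p = 1e-05). Of 9 receptors, 2 were higher and 2 lower (median 0.045), with Itga11 at 14.7 ± 1.4 CPM in T567A and 6.92 ± 0.48 in wild-type ezrin cells (log2 fold change 1.09, adjusted p = 1.5e-06). Of 7 breakdown genes, 2 were higher and 0 lower (median 0.226), with Mmp9 at 287 ± 30 CPM in T567A and 126 ± 0.019 in wild-type ezrin cells (log2 fold change 1.19, adjusted p = 2.6e-11).

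In T567D against wild-type ezrin cells, where 1.34% of all genes were called, 2 genes of the 4 lists passed edgeR's test. Adamts2, which trims procollagen, was 1 of 10 processing and cross-linking genes tested (log2 fold change 1.08, adjusted p = 0.00088). Mmp9 was 1 of 7 breakdown genes tested (log2 fold change 0.48, adjusted p = 0.00086). Of 22 folding and modification genes and 9 receptors and uptake genes, 0 passed. Adamts2 and Mmp9 were named here after their values were seen.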

How the data were processed

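Poly-A RNA of 5 lines, 2 libraries each, was read on DNBSEQ from strand-specific (dUTP) libraries, per the labels' protocols. The authors deposited a raw count and an RPKM value for each of 41743 gene names in every library. The build is GRCm38, per the submitters' processing notes; the sources used here do not give aligner, counting tool, annotation or strand setting, and counts of overlapping genes are uncertain.

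Counts were fitted with edgeR 4.0.16 (R 4.3.3). The filterByExpr filter used a minimum count of 10 and a minimum total of 15. A chain was taken to pass through 1 line where it failed the count minimum without that line's libraries; counts without such chains were added after the data were seen. After TMM scaling, a robust quasi-likelihood model with 1 mean per line was fitted to the 10 libraries, leaving 5 residual degrees of freedom. CPM values are TMM-scaled; the floor of 3 counts is on unscaled totals. RPKM was used as deposited, to compare genes per length. A log2 fold change is the first-named line minus the other. Its SE is its absolute value divided by the square root of the test's F statistic, and so restates the test. Every tested chain is named, with library values for the 22 chains that reach 1 CPM in a line. Of the lists, up to 3 called genes per direction with at least 10 CPM were eligible for naming. Members, lists and tests were chosen with earlier results of these data known. Positions are from GENCODE M21, on GRCm38. RefSeq upstream sequence was matched by symbol for 25 of the 32 chains.

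Alternatives were RLE and upper-quartile scaling, scaling without the chains, DESeq2 1.42.0, no count filter, a replicate block, limma 3.58.1 on log2 RPKM with pseudocounts of 1 and 0.1, only the libraries of the 2 lines, an adjusted p under 0.01 and leaving out each library. On simulated counts of 12595 genes for T567A minus wild type, the test recovered 90% of genes raised 2-fold. It recovered 82% of genes lowered to a fold of 0.5, and 17 of all 195 calls were false. The libraries of each line differed from each other by more than sampling noise.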

Additional observations from a re-analysis of the deposited data

How the results depend on the processing

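Of 113 called chain-by-comparison values, 80 kept their call and direction under every alternative run, 33 lost the call under 1 or more and 0 reversed. These 113 include 13 calls of chains that passed the filter only through a line in the comparison. Over all 2257 recomputed values, 2090 kept the call and 167 did not. The number of called chains in wild-type ezrin against empty-vector cells, 11, ranged from 4 to 11 when 1 library was left out. In T567D against wild-type ezrin cells it was 2, and 5 with no count filter, which added Col5a1, Col16a1 and Col7a1. It was 1 with the replicate block, with limma on log2(RPKM + 1), with limma on log2(RPKM + 0.1), with only the libraries of the 2 lines and at an adjusted p under 0.01, and 1 to 3 when 1 library was left out. With the other alternatives these counts, and those of the remaining comparisons, stayed within 1.5 times their value. The exact permutation test of the Col1a1 to Col1a2 ratio gave p = 0.0011 throughout, the smallest the design allows, which says nothing about stability.

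In lines with both replicate numbers in common, libraries with the same number did not deviate together (correlation over 12595 genes -0.0995 to -0.0074). This gave no sign that the numbers pair the samples but cannot exclude it. Lines with unlike numbers were not compared. With the replicate block, 18 chains were called in empty-vector against parental cells, 8 in wild-type ezrin against empty-vector cells and 11 in T567A against wild-type ezrin cells.

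Having 2 libraries a line and 1 line a construct limits every comparison. Chains near the floor, such as Col4a1, Col5a3 and Col10a1, rest on few counts.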
